A study of Mus musculus with 6 samples.

Results

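The genes described here encode 10 proteins that bind microtubules or tubulin: Mapt (tau), Map1a, Map1b, Map1s, Map2, Map4, Map7, Mapre1, Mapre2 and Stmn1. They were taken by name from the deposited count table, and they are 10 of its 53801 genes. The group was put together with the contrast between the libraries already known, and Mapt and Map1a were already known to be higher with Arid3a-FLAG. The differences of the members between the groups are therefore given as a description, with standard errors and without p-values.

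RNA was sequenced from 6 mouse fetal liver cell samples, 3 in each of 2 groups. All 6 came from E12.5-13.5 embryos of a B6J.129(Cg) strain with the Gt(ROSA)26Sor allele tm1.1(CAG-cas9*,-EGFP)Fezh, which carries Cas9 and EGFP. Both groups had a guide against Gata1 (sgGata1), which the labels call Gata1s after the shortened GATA1 protein, and a lentivirus for miR-125b. Both were exposed to doxycycline at 1 μg/mL for 48 h, which switched on Arid3a-FLAG in one group and LUC in the other. The labels do not say which promoter drives the constructs, whether the cells are 1 clone, or whether replicates came from separate animals or cultures. The p-values below may thus measure technical spread. Gene counts ran from 15728150 to 18249053 per library. The construct had 2758 to 3348 counts in the Arid3a-FLAG libraries and 0 in the LUC libraries, while the endogenous Arid3a gene had a log2 fold change of -0.01 (SE 0.19). LUC library 2 stood apart from the other two LUC libraries on the second principal component, which held 24.0% of the variance.

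Microtubules are hollow polymers of alpha and beta tubulin. Structural microtubule-associated proteins such as tau, MAP2, MAP4 and the MAP1 family bind along the polymer and stabilise or bundle it. End-binding proteins, encoded by the Mapre genes, follow growing plus ends, and stathmin, encoded by Stmn1, binds free tubulin dimers and favours disassembly. Tau, MAP2, MAP1A and MAP1B are best known from neurons, and MAP4 is the widely expressed relative of tau outside the nervous system. In megakaryocytes, the cells that make platelets, microtubules drive the extension of proplatelets and form the ring under the platelet membrane.

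Mapt, Map2 and Map4 share a tubulin-binding repeat region, and its closest stretch shows how far their transcripts can be told apart. The lines below give the 60 coding bases, within 1 exon of each gene, at which the 3 genes were most alike. Bases identical in all 3 are in capitals, 40 of 60.
Mapt: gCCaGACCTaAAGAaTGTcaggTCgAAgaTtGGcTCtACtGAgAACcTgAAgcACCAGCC
Map2: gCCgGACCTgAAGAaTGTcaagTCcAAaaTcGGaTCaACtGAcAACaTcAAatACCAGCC
Map4: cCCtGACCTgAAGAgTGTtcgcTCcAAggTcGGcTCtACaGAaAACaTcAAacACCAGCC
These come from the GENCODE M21 transcripts, on the plus strand of GRCm38 (mm10), at chr11:104310462-104310521, chr1:66425456-66425515 and chr9:110068913-110068972. Against Mapt, Map2 matched at 47 and Map4 at 45 of the 60 bases. The longest run of bases shared by the coding sequences was 11 between Mapt and Map2 and 13 between Mapt and Map4. In the MAP1 family it was 26 between Map1a and Map1b and 19 between Map1a and Map1s. No stretch of 50 bases was common to the annotated transcripts of any 2 of the 10 members. Read length is not stated in the labels.

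Tau was the member with the largest difference. Mapt (ENSMUSG00000018411, chromosome 11, 104231390 to 104332090, plus strand) had 238, 180 and 338 counts in LUC libraries 1, 2 and 3 and then 1092, 1169 and 966 where Arid3a-FLAG was induced. As CPM, counts scaled to library size with TMM factors, these were 13.8, 11.8 and 18.2 against 67.8, 67.9 and 60.6. Every Arid3a-FLAG library lay above every LUC library, and the lowest of them, at 60.6 CPM, was far above the highest LUC library at 18.2 CPM. The means were 14.6 ± 3.32 and 65.4 ± 4.15 CPM (SD, n = 3). The log2 fold change was 2.16 (SE 0.15), or 4.47-fold, which ranked 18 of 13631 tested genes from the top. With 1 library left out the log2 fold change ran from 2.04 without LUC library 2 to 2.38 without LUC library 3. The exons of Mapt share no base with another annotated gene, and none of its 7893 distinct stretches of 50 bases occurs in transcripts of another gene.

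Map1a, whose protein binds along microtubules and is abundant in neurons, followed at a lower level. It lies on chromosome 2 (ENSMUSG00000027254, 121289600 to 121310832, plus strand). Its counts were 88, 51 and 125 with LUC and 296, 254 and 267 with Arid3a-FLAG, or 5.08, 3.34 and 6.75 CPM against 18.4, 14.7 and 16.8 CPM. The groups did not overlap here either. The means of 5.06 ± 1.71 and 16.6 ± 1.82 CPM gave a log2 fold change of 1.70 (SE 0.22), or 3.26-fold, at rank 44. It was 1.499 without LUC library 2 and 1.997 without LUC library 3.

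Within the LUC group, Mapt and Map1a were both lowest in library 2 and highest in library 3. Their coefficients of variation there were 22.7% and 33.7%, where counting error alone would give about 6.30% and 10.7%. In the Arid3a-FLAG group the coefficients were 6.34% and 10.9%, against 3.05% and 6.06% from counting. Relative to their means, the LUC libraries thus varied more than the Arid3a-FLAG libraries in both genes. In CPM the SD was not larger in LUC, at 3.32 against 4.15 for Mapt and 1.71 against 1.82 for Map1a.

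**Figure D1:**
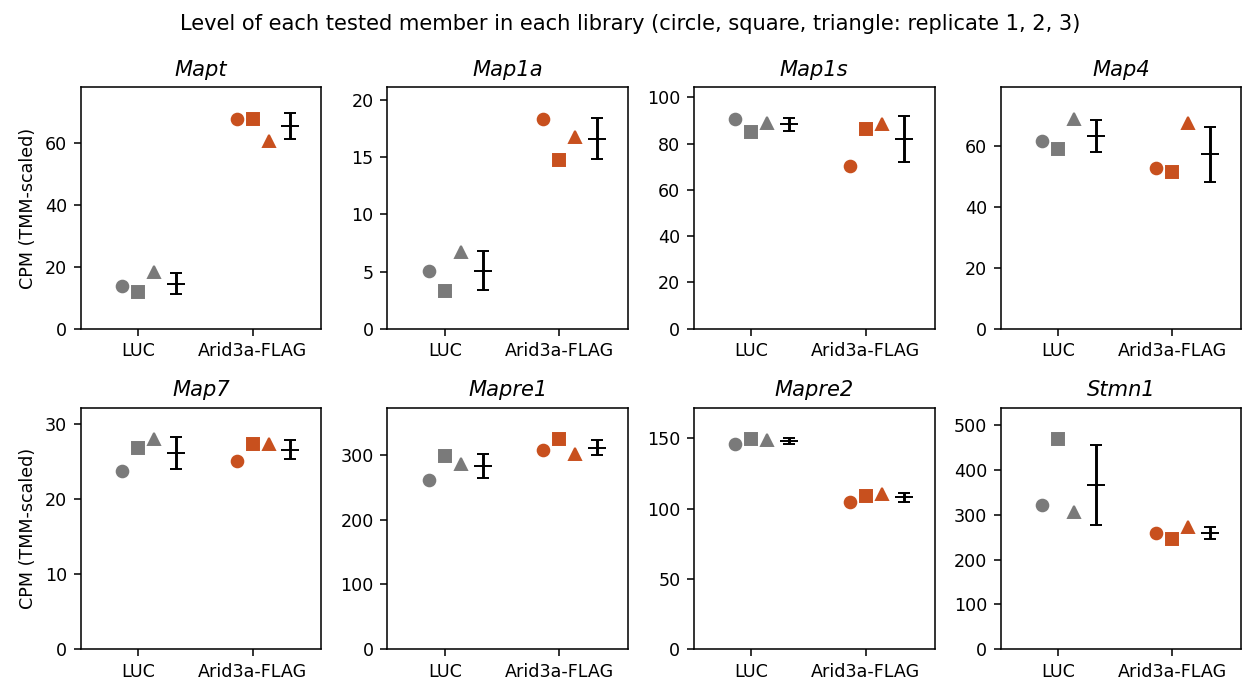
Level of the 8 tested members in CPM (TMM-scaled), 1 panel per gene, each axis starting at 0. Circles, squares and triangles are replicates 1, 2 and 3, grey for LUC and orange for Arid3a-FLAG, and the black bar is the mean with its SD (n = 3). Mapt and Map1a separate the groups with room between them. Stmn1 is highest in LUC library 2, at 468.6 CPM, and each of its LUC libraries lies above each Arid3a-FLAG library.

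Map1a shares 272 of its 12166 exon bases with Ppip5k1, an inositol pyrophosphate kinase gene on the opposite strand whose 3' end meets that of Map1a. Since the labels do not state whether counting used strand, reads of that stretch cannot be assigned to one gene. The stretches of 50 bases that Map1a shares with any other gene, 1.83% of its total, were all shared with Ppip5k1. Ppip5k1 itself averaged 20.3 ± 2.43 CPM in LUC and 17.6 ± 0.845 CPM in Arid3a-FLAG libraries (log2 fold change -0.21, SE 0.12, edgeR adjusted p = 0.323), a sign opposite to that of Map1a.

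The remaining structural proteins did not follow tau. Map4 (ENSMUSG00000032479, chromosome 9, 109931460 to 110083955), the relative of tau in other tissues, stood at 61.7, 58.8 and 68.9 CPM in the control libraries, against 52.6, 51.3 and 67.5 CPM after Arid3a-FLAG. The groups overlapped, and the log2 fold change was -0.14 (SE 0.12). Map1s (ENSMUSG00000019261, chromosome 8, 70905932 to 70917529), the short MAP1 protein found in many tissues, had 90.8, 85.1 and 89.1 against 70.4, 86.5 and 88.7 CPM. Its difference of -0.11 (SE 0.10) rested mainly on the low Arid3a-FLAG library 1 and was -0.01 without it. Map7, or ensconsin, which recruits the motor kinesin-1 to microtubules, lies on chromosome 10 (ENSMUSG00000019996, 20148471 to 20281590). Its libraries gave 23.8, 26.8 and 27.96 CPM against 25.1, 27.3 and 27.3 CPM. These overlapped, with means of 26.2 ± 2.14 and 26.6 ± 1.26 CPM and a log2 fold change of 0.02 (SE 0.11) that was -0.02 without LUC library 1. Map7 overlaps the antisense gene Gm48249 over 332 exon bases, but that gene had at most 4 counts in any library.

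Map2 and Map1b, the other neuronal members, were close to absent. Map2 (ENSMUSG00000015222, chromosome 1, 66175273 to 66442583) had 0, 6 and 3 counts with LUC and 1, 0 and 0 with Arid3a-FLAG. Map1b (ENSMUSG00000052727, chromosome 13, 99421446 to 99516540, minus strand) had 0, 0 and 2 against 3, 0 and 0. A count of 0 allows up to 3 counts, which is 0.162 to 0.196 CPM depending on the library and covers counting error only. Neither gene passed the filter on low counts and no fold is given.

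Of the end-binding genes, Mapre2 was lower and Mapre1 was not called. Mapre2 (ENSMUSG00000024277, chromosome 18, 23752333 to 23893861), which encodes EB2, measured 145.7, 149.2 and 149.03 CPM in LUC libraries 1 to 3, and 104.4, 108.8 and 110.6 CPM once Arid3a-FLAG was induced. Both groups were tight, with coefficients of variation of 1.35% and 2.95%, and they did not overlap. The log2 fold change was -0.45 (SE 0.08), a 1.37-fold lower level with Arid3a-FLAG. Its place past the threshold of an adjusted p under 0.05 was lost without Arid3a-FLAG library 1 or 2, where the difference was -0.43 and -0.46. Mapre1 (ENSMUSG00000027479, chromosome 2, 153741274 to 153773310), which encodes EB1, the main plus-end tracking protein, had 261.8, 298.8 and 286.1 against 307.6, 323.8 and 300.96 CPM. Its Arid3a-FLAG libraries all lay above its LUC libraries, but by little, and the log2 fold change was 0.14 (SE 0.09).

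Stmn1 (ENSMUSG00000028832, chromosome 4, 134468320 to 134473843), the tubulin-sequestering protein of dividing cells, reached 322.3, 468.6 and 306.8 CPM in LUC libraries 1 to 3, and 258.8, 246.9 and 272.6 CPM in Arid3a-FLAG libraries 1 to 3. LUC library 2 stood far above the other two, yet every LUC library was above every Arid3a-FLAG library. The log2 fold change was -0.50 (SE 0.15) with all libraries and -0.26 without LUC library 2. The gene was not past the threshold in edgeR with all 6 libraries. It was past it without LUC library 2, without LUC library 3, with no filter on low counts, and in DESeq2. Of its distinct stretches of 50 bases, 18.9% also occur in other genes, 351 of 369 of them in the processed pseudogene Gm11223. Counted on its own, Gm11223 averaged 15.6 ± 2.55 CPM (LUC) and 11.8 ± 2.67 CPM (Arid3a-FLAG). The labels do not state what was done with multiply aligned reads, so the level of Stmn1 carries that uncertainty.

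In all, 8 of the 10 members passed the filter on low counts. Of these, 2 were past the threshold and higher (Mapt and Map1a), 1 was past it and lower (Mapre2), and 5 were not past it. Over all 13631 tested genes 7.29% were called, 3.43% higher and 3.87% lower. The groups did not overlap for 3 members that were higher and 2 that were lower, where 16.6% and 16.5% of all tested genes did so. Since the contrast was used to gather the members, nothing is read from these shares. The median log2 fold change of the 8 tested members was -0.04, and that of all tested genes was -0.03. In bulk RNA, more cells with a transcript and more transcript per cell cannot be told apart, and this applies to each difference given here.

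**Figure D2:**
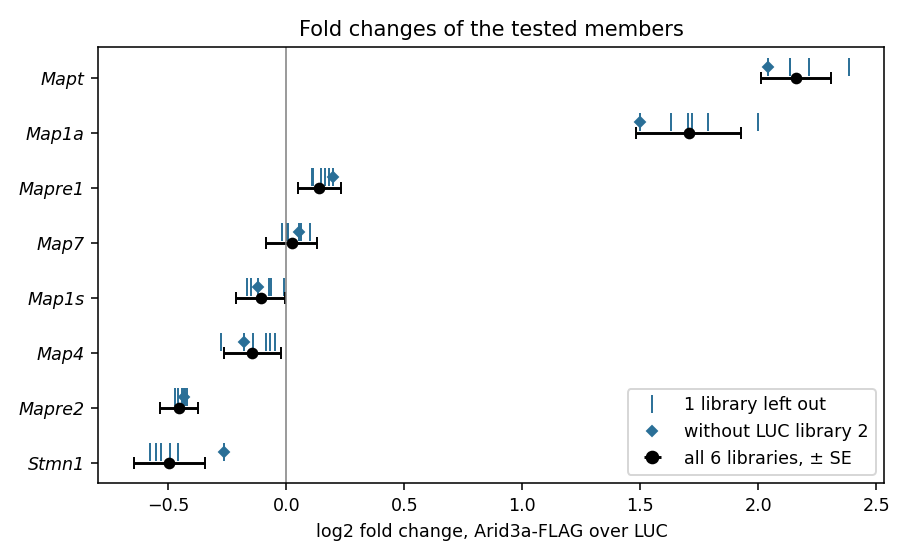
Log2 fold change of the 8 tested members, Arid3a-FLAG over LUC. Black points are the values from all 6 libraries with their SE, blue ticks are the 6 fits with 1 library left out, and the diamond is the fit without LUC library 2. With 1 library left out, Mapt runs from 2.04 to 2.38 and Map1a from 1.499 to 1.997. Stmn1 moves most without LUC library 2 (-0.26).

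Levels were compared between genes per kilobase of merged exons (RPKM from the TMM-scaled CPM). In the LUC group Stmn1 was highest at 190.4 ± 46.5 RPKM, followed by Mapre1 at 36.1 ± 2.40, Mapre2 at 14.5 ± 0.196 and Map1s at 11.1 ± 0.367 RPKM. The structural proteins Map4, at 4.17 ± 0.343 RPKM, and Map7, at 3.30 ± 0.270 RPKM, stood above Mapt at 1.94 ± 0.440 and Map1a at 0.416 ± 0.140 RPKM. Map2 and Map1b had at most 0.0239 and 0.00681 RPKM in any LUC library. The ranges of neighbours in this order were apart except for Map2 and Map1b.

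With Arid3a-FLAG, Mapt stood at 8.69 ± 0.551 RPKM, at place 4 or 5 of the members in each library after place 7 in every LUC library. It then overlapped Map1s, at 10.3 ± 1.25 RPKM, and stood clear of Map4, at 3.77 ± 0.593 RPKM. Mapre2 (10.6 ± 0.312 RPKM) overlapped Map1s, and Map4 overlapped Map7 (3.35 ± 0.159 RPKM), so their order is not resolved. Map1a, at 1.37 ± 0.149 RPKM, kept place 8. The ratio of Mapt to Map4 per length was 0.448, 0.403 and 0.533 for LUC, and it was 2.59, 2.66 and 1.81 for Arid3a-FLAG. Per length, Mapt RNA was thus the less abundant of the pair in each LUC library and the more abundant in each Arid3a-FLAG library. By CPM, Mapt was above Map4 in Arid3a-FLAG libraries 1 and 2 but below it in library 3 (60.6 against 67.5 CPM). The order in that library therefore depends on the lengths used. Merged exons count every annotated exon, so a gene whose cells use only short transcripts has a higher level per length than is given here.

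**Figure D3:**
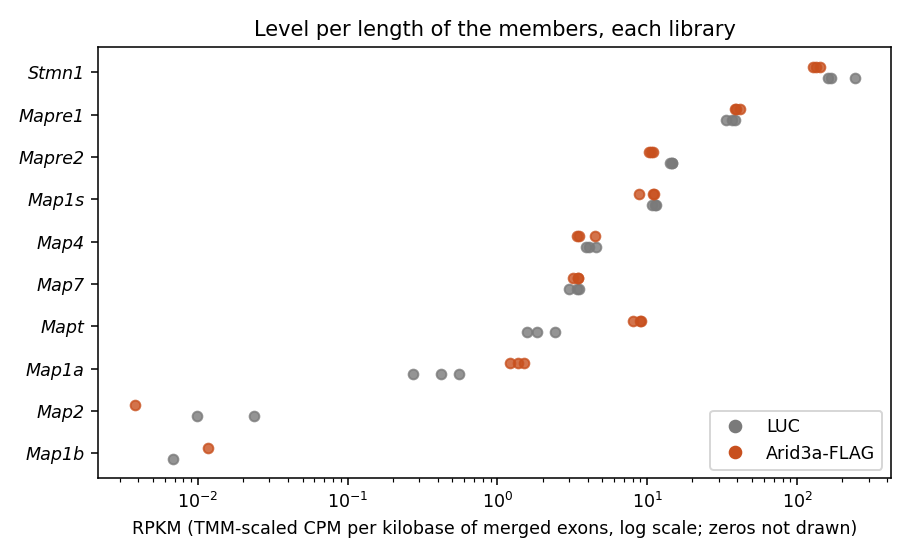
RPKM of the 10 members in each library on a log scale, grey for LUC and orange for Arid3a-FLAG, ordered by the LUC mean. Libraries with a count of 0 are not drawn. Mapt passes Map7 and Map4 with Arid3a-FLAG, while Map2 and Map1b stay below 0.03 RPKM.

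Calls among other microtubule genes were counted beside those over all tested genes. Beside the members, 193 genes in 10 lists were followed, and 151 of them passed the filter. By edgeR's quasi-likelihood test with Benjamini-Hochberg adjustment over all genes, 3 were higher, 4 were lower and 144 did not pass, which is 4.64% called beside 7.29% of all tested genes. Their median log2 fold change was -0.01, and 0.04 without LUC library 2. The count of 7 depended on single libraries, so nothing is read from the difference in share. It was 4, 18 and 5 without LUC library 1, 2 and 3, and 0, 1 and 4 without Arid3a-FLAG library 1, 2 and 3. The calls over all tested genes moved too, from 994 to 428, 2286 and 1049 without LUC library 1, 2 and 3. They numbered 233, 294 and 565 without Arid3a-FLAG library 1, 2 and 3.

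The structural proteins beyond the members, such as the Map7d, Eml and doublecortin families, had 17 tested genes and no call in edgeR, DESeq2 or limma-voom. An unadjusted p under 0.05 in edgeR was reached by 1 higher and 0 lower genes, beside 1592 higher and 1891 lower of all 13631 tested genes. Without LUC library 2, edgeR called 1 higher and 0 lower in this list. The gene with the smallest p there, Eml6, had 6.34 ± 0.208 and 9.06 ± 0.745 CPM (adjusted p = 0.0697). No relative of stathmin (Stmn2, Stmn3 or Stmn4) passed the filter. Of 22 tested plus-end and lattice proteins, 2 rose and 0 fell, and without LUC library 2 there were 3 higher calls and 1 lower. Over all tested genes 3.43% were called higher and 3.87% lower. Without LUC library 2, calls over all genes numbered 1191 higher and 1095 lower, up from 467 and 527. Slain2, which couples end-binding proteins to the tubulin polymerase CKAP5, rose from 83.3, 79.3 and 81.8 CPM to 113.7, 114.9 and 108.5 CPM. Its groups did not overlap, and its log2 fold change was 0.46 (SE 0.08, adjusted p = 0.00888). It did not pass without Arid3a-FLAG library 1 (0.067) or 2 (0.070). Apc, the tumour suppressor that binds plus ends, rose from 39.0 ± 4.67 to 52.2 ± 2.08 CPM (0.42, SE 0.11, adjusted p = 0.043), a call that ended without LUC library 1 or any single Arid3a-FLAG library (adjusted p up to 0.175), with upper quartile factors (0.0548) and with a minimum of 5 CPM in 3 libraries (0.0502).

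Among 20 tested tubulin modifying enzymes Ttll11, a polyglutamylase that adds glutamate chains to tubulin, was the single call with all 6 libraries. Without LUC library 2, edgeR called 1 higher and 2 lower in this list, and 1191 higher and 1095 lower over all genes. With all 6 libraries, 3.43% of all tested genes were called higher and 3.87% lower. Ttll11 rose from 25.2 ± 4.24 to 41.2 ± 3.50 CPM, or by 0.71 (SE 0.13, adjusted p = 0.013, and 0.079 without Arid3a-FLAG library 1). Of 25 tested minus-end and gamma-tubulin genes, 1 fell, the mitotic kinase Nek6, from 33.7 ± 2.06 to 23.5 ± 4.35 CPM (-0.52, SE 0.14, adjusted p = 0.046). Nek6 lost its call when LUC library 1 or 3, or Arid3a-FLAG library 1 or 2, was left out (up to 0.187), with the minimum of 5 CPM (0.0536) and without the 20 most abundant genes (0.0509). Haus1, a subunit of the augmin complex that branches spindle microtubules, differed most in size, by -2.01 (SE 0.63), and did not pass (adjusted p = 0.0794). Its LUC libraries held 2.66, 23.4 and 10.7 CPM and thus varied widely.

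Kinases and phosphatases that act on tau and related proteins had 20 tested members. Nuak1, an AMPK-related kinase, fell from 4.91 ± 0.911 to 2.20 ± 0.284 CPM (-1.16, SE 0.23, adjusted p = 0.016), a call that ended when either Arid3a-FLAG library 1 or 2, or else LUC library 1, was dropped (up to 0.086). The tau kinase Gsk3b stood at 82.5 ± 9.21 and 101.9 ± 2.16 CPM and did not pass (0.30, SE 0.10, adjusted p = 0.087). In the spindle list of 15 tested genes, 2 fell and 0 rose, and without LUC library 2 there were 3 lower and 2 higher calls. Over all tested genes 3.87% were called lower and 3.43% higher. Their calls also grew without LUC library 2, to 1095 lower and 1191 higher, so little can be read from so few genes. Psrc1 went from 136.7 ± 15.4 to 98.0 ± 6.43 CPM (-0.48, SE 0.10, adjusted p = 0.022). Nusap1, which bundles spindle microtubules, went from 153.6 ± 15.4 to 116.8 ± 4.12 CPM (-0.39, SE 0.10, adjusted p = 0.034). Psrc1 kept its call only without LUC library 2, and Nusap1 only without LUC library 1 or 2, among the 6 fits with 1 library left out.

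None of the 12 tested severing and depolymerising genes and none of the 7 tubulin folding cofactors was called by edgeR, DESeq2 or limma-voom. Without adjustment, 2 of the former and 1 of the latter had p under 0.05 and were lower, and 0 were higher. Over all 13631 tested genes, 1891 were lower and 1592 higher at that unadjusted threshold. The tubulins themselves, from which microtubules are built, had 14 tested genes and no call in edgeR or limma-voom, while DESeq2 called 1 lower. Without adjustment 2 had p under 0.05, both lower. Of the 14, 1 lay above 0, and their median was -0.13. That direction rested on LUC library 2, where the tubulins summed to 6687 CPM against 5033 and 5116 CPM in LUC libraries 1 and 3 and 4959 to 4990 CPM with Arid3a-FLAG. Without it 8 of the 14 lay above 0, their median was 0.03, and edgeR called 2 lower and 0 higher. Over all genes that fit called 1095 lower and 1191 higher. Tubb2b had 37.3 ± 5.50 and 27.7 ± 2.53 CPM (adjusted p = 0.071) and did not pass. Tubb1, the beta tubulin of platelets, which was singled out after its values were seen and is the 1 gene above 0 with all libraries, was low in both groups at 1.31 ± 0.241 and 1.83 ± 0.566 CPM. Tubulin genes resemble each other, so reads may be split between them.

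**Figure D4:**
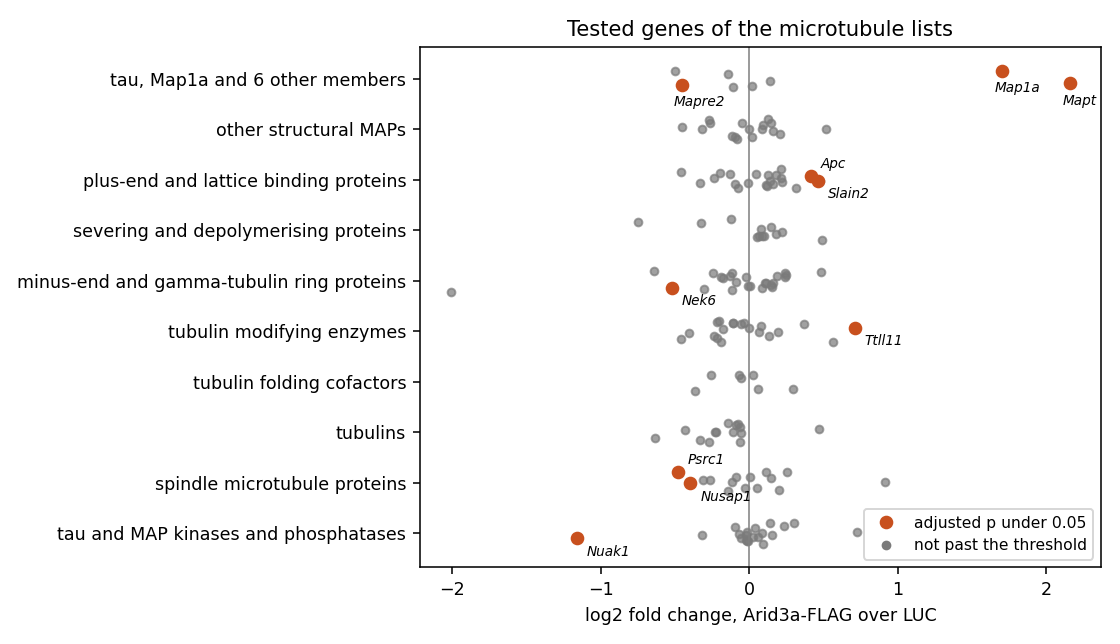
Log2 fold change of each tested gene in the microtubule lists, 1 row per list with the members on top and 1 point per gene, spread vertically for legibility. Orange points have an adjusted p under 0.05 in edgeR and are named. None of the 151 other genes rises as far as Map1a (1.70) or Mapt (2.16). Those 2 were already known to be higher when the members were gathered, so nothing is read from this.

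Markers of the cell types that the samples could hold were followed beside the members. All 14 listed megakaryocyte genes passed the filter, with a summed level of 6700 to 8436 CPM in LUC and 6959 to 7499 CPM in Arid3a-FLAG libraries, and 4 rose and 1 fell. Of 9 tested erythroid genes 3 rose and 1 fell, and the list's summed level was 308.4 to 361.6 against 450.5 to 580.7 CPM. Of 8 tested mast cell and basophil genes 3 fell, at summed levels of 3015 to 3567 against 2147 to 2914 CPM. Of 4 tested macrophage genes 1 rose, Csf1r, a receptor of macrophages, at 1.85, 2.81 and 3.18 against 7.14, 8.24 and 8.29 CPM (1.59, SE 0.22, adjusted p = 0.00296). The other 3 tested were not called. In LUC and Arid3a-FLAG libraries, Adgre1 averaged 2.90 and 2.80 CPM, Mrc1 0.734 and 0.811 CPM, and Cd68 2.03 and 2.74 CPM. The list of 8 summed to 8.32 to 8.80 against 13.99 to 14.9 CPM, with Vcam1 at 0 in all libraries. Csf1r made up most of the difference in that sum. Without LUC library 2, the genes that rose numbered 6 for megakaryocytes and 5 for erythroid cells. Over all tested genes, 3.43% were called higher and 3.87% lower with all 6 libraries. Their higher calls went from 467 to 1191 without LUC library 2, so more calls in a marker list are not particular to it. The part of the marker differences in those of Mapt, Map1a and Mapre2 was not tested. Of 8 hepatocyte genes 7 did not pass the filter and Fgb, Hnf4a, Serpina1a and Ttr had 0 counts in all libraries, while the list summed to 20.1 to 27.1 and 16.3 to 20.2 CPM.

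Markers of neurons, the cells for which tau and MAP1A are best known, were at or near 0 for the most part. Of 18 listed neuronal genes, 15 did not pass the filter. These 15 together had 1.05 to 1.24 CPM in the LUC and 1.38 to 2.30 CPM in the Arid3a-FLAG libraries, a low sum that follows from the filter. All 18 together summed to 102.9 to 113.4 CPM in LUC and 102.9 to 118.9 CPM in Arid3a-FLAG libraries. Dcx, Ina, Sox2, Stmn2 and Syt1 had 0 counts in every library. Nes and Nefh passed the filter and were not called by edgeR (log2 fold changes of -0.11 and 0.03, adjusted p = 0.603 and 0.947). Nes was well above 0, at 67.1 ± 7.29 CPM in LUC and 62.2 ± 9.04 CPM in Arid3a-FLAG libraries, and Nefh averaged 4.09 and 4.16 CPM.

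The neighbours of the members on the chromosomes were chosen by position alone. Around the 8 tested members there were 18 nearest or overlapping tested genes, of which 2 rose and 0 fell. Over all tested genes 3.43% were called higher and 3.87% lower, so little can be read from so few neighbours. Next to Mapt, Kansl1, on the opposite strand with its 3' end 1.14 kb beyond that of Mapt, had 60.3 ± 3.83 and 71.8 ± 4.98 CPM (0.25, SE 0.09, adjusted p = 0.131). Arf2, the nearest tested gene on the other side at 246.1 kb, showed a difference of 0.31 (SE 0.10, adjusted p = 0.079). Beside Map1a, Trp53bp1 at 18.2 kb had 0.18 (SE 0.10, adjusted p = 0.296). Within 150 kb of Map1a there were 11 other tested genes, with log2 fold changes from -0.35 to 0.34 and no adjusted p below 0.151. The 2 neighbours that rose were Map3k5 beside Map7 (0.35, SE 0.09, adjusted p = 0.036) and Paqr7 beside Stmn1 (0.45, SE 0.09, adjusted p = 0.017), whose members stood at 0.02 and -0.50. Both calls were lost without LUC library 1 or any Arid3a-FLAG library (up to 0.162 and 0.097).

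**Figure D5:**
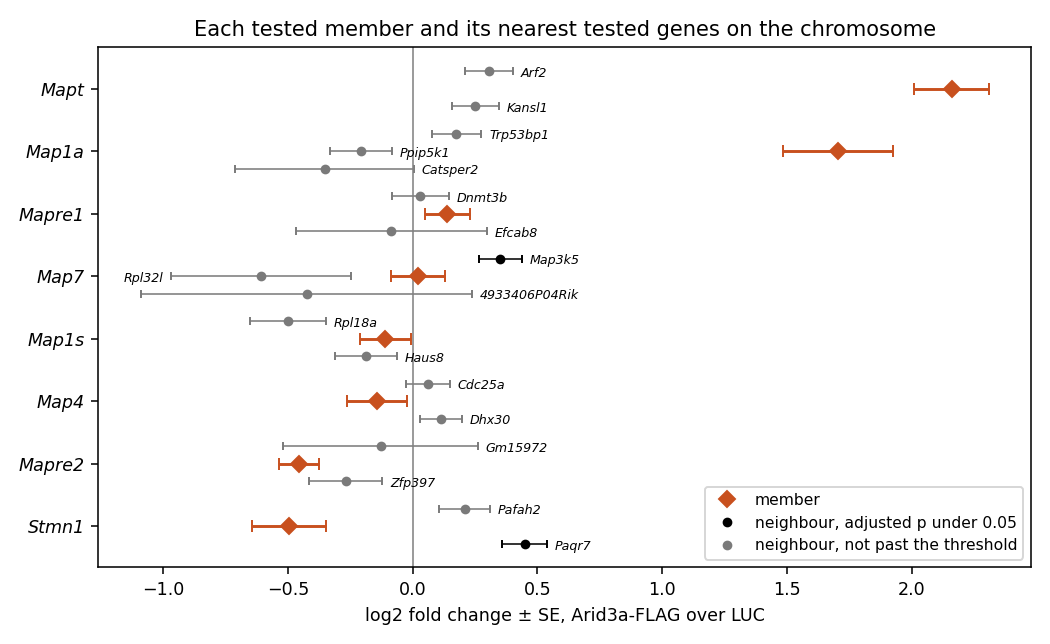
Log2 fold change with its SE for each tested member (orange diamonds) and for the nearest tested gene on each side or overlapping it (circles, black where the adjusted p is under 0.05). The neighbours of Mapt lie at 0.31 and 0.25 and those of Map1a between -0.35 and 0.18.

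The promoter table from RefSeq (GRCm38.p6) held windows for 7 of the 10 members, without Mapt, Mapre2 and Stmn1. The window of Map1a is shown because Map1a is the 1 gene in the table with a large difference. Its 238 bases before the earlier of the RefSeq and GENCODE starts, chr2:121289352-121289589 on the plus strand, are shown with each CG dinucleotide in capitals.
Map1a: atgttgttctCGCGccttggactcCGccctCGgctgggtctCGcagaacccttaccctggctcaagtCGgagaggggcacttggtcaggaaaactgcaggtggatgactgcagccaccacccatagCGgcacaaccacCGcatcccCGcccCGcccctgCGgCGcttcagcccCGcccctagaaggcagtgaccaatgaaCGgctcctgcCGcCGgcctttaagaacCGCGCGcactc
This stretch held 19 CG dinucleotides. The full window of 300 bases held 27, where the median of 32851 windows was 7 and the upper quartile 20. Arid3a binds AT-rich DNA. The letters ATTAAA, searched on both strands, were in 0 of the 7 members' windows and in 13.9% of all windows. The GATA-like letters AGATAA were found in 1 of the 7 members, Map1b, and in 11.2% of all windows. The ETS-like letters CCGGAA were found in Map1s and Map1b and in 14.9% of all windows. These matches describe the windows only.

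Finally, the genes whose profile over the 6 libraries was most like that of Mapt or Map1a were listed, by the root mean square difference of log2 CPM after centring each gene on its mean. Among 9617 genes of at least 5 CPM on average, without predicted genes and pseudogenes, those nearest to Mapt were Exoc3l4 (0.12), which overlaps a gene on the other strand, the synaptotagmin Syt13 (0.15), the adenylyl cyclase Adcy9 (0.18), Prrt4 (0.21) and the cation exchanger Slc24a1 (0.24). Those nearest to Map1a were the Kell blood group gene Kel (0.22), the endocytic scaffold Itsn1 (0.23), the proteoglycan Vcan (0.24), the kinase Hipk2 (0.24) and the cannabinoid receptor Cnr1 (0.25). Mapt and Map1a differed from each other by 0.27. Itsn1 went from 6.20 ± 0.947 to 17.2 ± 0.438 CPM and Cnr1 from 27.9 ± 2.39 to 86.3 ± 3.42 CPM. These genes were chosen for their likeness, so their values carry no test.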

How the data were processed

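The deposited table holds the authors' read counts per gene, 1 whole number per gene and library without normalization. Per the submitters' processing notes, fastp, HISAT2 2.0.5 and featureCounts were used with the build mm10; settings, annotation release and strand are not stated there. Of 53802 entries, 1 is the Arid3a construct, kept out of library sizes and tests. Symbols, exons and transcripts came from GENCODE M21 (GRCm38), and 95 identifiers had no match.

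Group differences were fitted to the counts with edgeR 4.0.16 under R 4.3.3 (filterByExpr, TMM, glmQLFit and glmQLFTest, group as the only term, two-sided), adjusted by Benjamini-Hochberg over all 13631 tested genes, with limma 3.58.1 and DESeq2 1.42.0 as alternatives. The fit was tested on simulated data. Standard errors come from the fold change and its F statistic (absolute log2 value over root F). CPM used TMM-scaled library sizes. Log2 CPM for profiles used a prior count of 2.

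The members and lists were chosen with earlier results of these data known. Besides the members, genes named were those overlapping a member's exons, up to 4 of smallest p per list (2 in each direction where both had calls), the 5 nearest in profile to Mapt and Map1a, and Arid3a. Gm11223 and genes next to members were added after the data were seen, by shared sequence or position. Some named by the rule are given only in counts. One listed marker gene is not reported here.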

Additional observations from a re-analysis of the deposited data

How the results depend on the processing

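The 2 higher members, Mapt and Map1a, kept their direction and call with RLE factors, upper quartile factors, an unfiltered table, a minimum of 5 CPM in 3 libraries, DESeq2, limma-voom, the replicate block, the 20 most abundant genes left out, and each library left out. Both were already known to be higher in these same libraries when the members were gathered. These refits therefore describe how the values move and are no separate evidence for the difference. Lower members numbered 1, and 2 with no filter or in DESeq2 (Mapre2 and Stmn1), and 0 to 2 with 1 library left out. Map7 changed sign without LUC library 1, its values with 1 library left out running from -0.0202 to 0.10. Over the other microtubule genes, calls numbered 13 with no filter (9 lower) and 4 with the 5 CPM filter (2 lower), against 7 (4 lower). With 1 library left out they ran from 0 to 18, with 0 to 8 higher and 0 to 10 lower. All genes called were 994 (467 higher, 527 lower), 1945 with no filter (869 and 1076), 1461 in DESeq2 (733 higher), and 233 to 2286 with 1 library left out (115 to 1191 higher, 118 to 1095 lower). The cause of these moves was not tested.

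Whether the replicate numbers pair the samples is not settled. Deviations of same-numbered libraries correlated at -0.10, -0.11 and 0.12, and those of different-numbered libraries at -0.18 to 0.21. The correlations cannot decide it, since the 3 deviations of a gene within a group depend on one another. With the replicate block, 3 members (2 higher, 1 lower), 5 other microtubule genes (2 higher, 3 lower) and 940 genes (410 higher, 530 lower) were called. Of the genes named, the block ended the calls of Apc (adjusted p = 0.0514), Nusap1 (0.0560) and Map3k5 beside Map7 (0.0654), and not that of Paqr7 (0.0260). Of 40 levels per length recomputed with unique exon bases or unscaled library totals, all 40 moved by less than 1 SD. The first setting divides the same counts by another length, and leaves members without shared bases unchanged. No reads were reassigned, so it cannot show what overlapping genes add to the counts. Depth limits Map2 and Map1b, with at most 6 counts in a library.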
